A study of Drosophila melanogaster with 144 samples.

Results

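Heads frozen late in the subjective night were compared with heads frozen early in it in DGRP_892, a line from the Drosophila Genetic Reference Panel (inbred lines made from wild flies) whose circadian period is long by the study's description. The late night held 18 libraries frozen at circadian times (CT) 20, 22 and 24, and the early night held 18 libraries frozen at CT14, CT16 and CT18, each with 9 libraries of males and 9 of females. These 36 libraries were chosen by line and time from the 144 of the series, of which 36 more, from the same hours in Canton-S B, a line described as having a 24-h period, served for comparison. The growth protocol names that line with w1118 before it, and the other labels do not, so its white allele is uncertain. All flies were adult virgins. They were entrained for 3 days to cycles of 12 h light and 12 h dark and then held for 3 days in constant darkness, so every group shared the absence of light. Each library held poly(A) RNA from a pool of 150 heads, and each combination of line, sex and time had 3 libraries from 3 rounds of collection. DGRP_892 is 1 inbred genotype, and the sources used here do not give how CT was set for a line whose day is longer than 24 h, nor which of the 2 incubators with opposite light cycles supplied which time.

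In the fly clock, CLK and CYC switch on per, tim, vri, Pdp1 and cwo around dusk. PER and TIM proteins accumulate through the night and shut CLK and CYC off, while VRI and PDP1 act on the Clk gene, and CRY resets the clock in light. Textbook profiles from light-dark cycles therefore place per, tim and vri transcripts high early in the night and Clk transcripts high towards its end. Ubiquitin ligases and deubiquitinases tune this loop by changing the stability or the activity of clock proteins. A whole head also contains eyes, brain, glia, fat body and muscle, in which fewer cells of a type and less RNA per cell cannot be told apart.

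Gene counts ran from 13.04 M to 35.04 M per library (M, units of 1e6), with a median of 15.54 M in late heads. The library numbers in the labels formed 6 runs of 24 consecutive numbers, and late and early libraries were spread unevenly over them: in runs 1 to 6 there were 4, 2, 5, 1, 4 and 2 late libraries, against 1, 5, 1, 3, 2 and 6 early libraries. What a run of numbers stands for (extraction, library preparation or sequencing) is not stated in the labels. Sex explained a share of 0.927 of the first principal component, which held 34.4% of the variance. The second, with 19.1%, followed the run of library numbers (0.908) more closely than late against early night (0.139). ERCC spike-ins took 0.191% to 0.666% of counts in late libraries, against 0.220% to 0.931% in early libraries, and their median share per run lay between 0.232% (run 1) and 0.744% (run 6). All 28 phototransduction genes were detected, and their summed level was 89161 to 119670 counts per 1e6 gene counts (CPM) in late heads, against 92010 to 116740 CPM in early heads. The library of males at CT22, replicate 2, stood apart: 250 genes had at least 5 CPM there and over 10 times the level of any other male library. Its summed level of 20 testis and accessory gland genes was 145 CPM, where no early library passed 5.35 CPM, and its 19 gut genes summed to 353.9 CPM. Females at CT22, replicate 1, held traces of gut proteases (Jon99Ciii 4.64 CPM, Jon65Aiii 2.08 CPM, and medians of 0.069 and 0 CPM over all 36 libraries), and the main counts below are also given without these 2 libraries.

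Usp8 fell in the late night. It encodes a ubiquitin-specific protease that in flies removes ubiquitin from CLK and lowers CLK/CYC activity. It was the 1 gene of 9874 tested that passed an adjusted p of 0.05 with sex in the model (0.0101%; edgeR's quasi-likelihood test with Benjamini-Hochberg adjustment). Across the 18 late libraries Usp8 (FBgn0038862, chromosome 3R, 21134262 to 21138214, plus strand, FlyBase release 6 assembly) ranged from 74.02 to 101.4 CPM with a median of 91.05 CPM. Across the 18 early libraries it ranged from 94.7 to 131.04 CPM with a median of 115.4 CPM. Late and early libraries overlapped slightly: 6 late libraries lay above the lowest early one, and 4 early libraries lay below the highest late one. Means by time were 105.99 ± 13.2 CPM at CT14, 118.35 ± 10.7 at CT16, 119.2 ± 9.7 at CT18, 92.2 ± 9.6 at CT20, 92.1 ± 7.0 at CT22 and 86.8 ± 9.9 at CT24 (SD, n = 6 each). The step thus lay between CT18 and CT20, and each late time had a lower mean than each early one.

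Late over early, the log2 fold change of Usp8 was -0.34 ± 0.05 (SE; 95% interval -0.44 to -0.24; adjusted p = 0.000558, edgeR), and the late mean was 78.9% of the early mean. It was lower late in 6 of 6 pairs of sex and replicate number, which the rule for naming a gene required. Usp8 was also lower within 6 of 6 runs of library numbers, where the difference of log2 CPM lay between -0.48 and -0.21. Runs 1 and 3 held 1 early library each and run 4 held 1 late library, so 1 side of those differences rests on 1 library. That limit holds for each count of runs given below, and 1.62% of all genes were lower in all 6 runs. With the runs as a term beside sex, the log2 fold change of Usp8 was -0.29 ± 0.055 with an adjusted p of 0.0684 (edgeR), so the call was lost. Scaled to the ERCC spike-ins, the median over all genes was 0.32 in place of -0.01. Usp8 stood at -0.01 ± 0.21 there, below that median, and was not called (adjusted p = 0.956, edgeR). The SE of 0.21, against 0.05 in the main fit, leaves this scale little precision for a change of that size. Leaving out the 2 libraries with gut or testis genes gave an adjusted p of 0.00259, and over all alternatives it lay between 5.61e-07 and 0.956. No gene of the annotation overlaps Usp8.

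**Figure D1:**
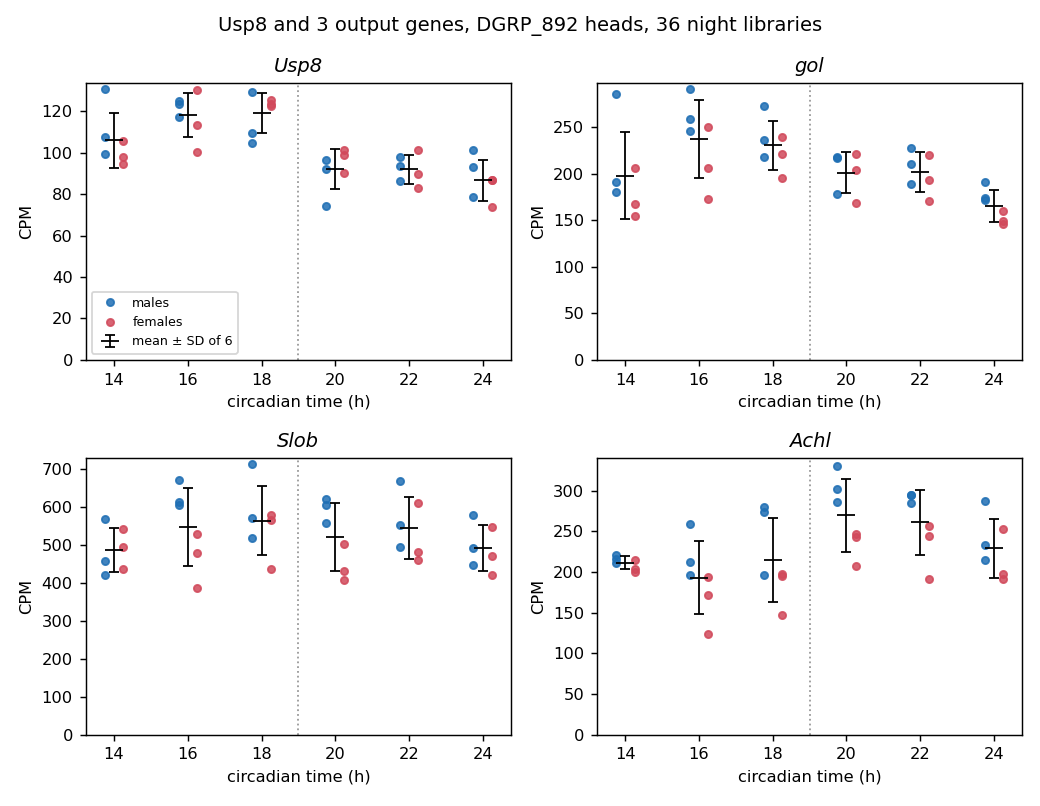
Levels of Usp8, gol, Slob and Achl (y axes, CPM from 0) by circadian time (x axes, h) in the 36 night libraries of DGRP_892; points are single libraries of males and females, bars the mean ± SD of 6 libraries, and the dotted line separates CT18 from CT20. Usp8 means lie between 86.8 and 92.2 CPM at the late times and between 105.99 and 119.2 CPM at the early times.

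Below this 1 gene, many genes had small differences and no other gene passed the threshold. At an unadjusted p under 0.05 there were 2763 genes, 28% of those tested, with 1310 higher late (13.3%) and 1453 lower late (14.7%). On the ERCC scale 1454 were higher and 5 lower, so the split depended on the scaling. Without the 2 libraries with gut or testis genes, 1 gene was past an adjusted p of 0.05 (edgeR) and 1954 had an unadjusted p under 0.05. In the fit of all 36 libraries the adjusted p-values were so alike that 1 gene was under 0.11 and 1114 genes were under 0.12. In that fit the median absolute log2 fold change was 0.096. Of 8066 genes with at least 5 CPM on average, 8 had a fitted log2 fold change of more than 1 in size. Without the 2 libraries 6 of 8069 did, and CG34220 fell from 2.77 to 0.48. DESeq2 called 27 genes past 0.05, 9 of them higher late and 18 lower, with Usp8 again at the lowest p.

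With the runs of library numbers in the model, 299 genes (3.03%) had an unadjusted p under 0.05, of which 125 were higher late (1.27%) and 174 lower late (1.76%), and no gene passed an adjusted p of 0.05 (edgeR). With no difference in any gene, a share of about 0.05 would fall under this unadjusted threshold. Genes named below by their unadjusted p in this fit are therefore a description. The median absolute log2 fold change was 0.036 in this fit, against 0.096 without the runs. The calls also turned on 3 single libraries. Leaving out males at CT18 replicate 3 gave 1785 genes past 0.05, leaving out males at CT24 replicate 2 gave 1210, and leaving out females at CT20 replicate 2 gave 570. The library of males at CT18 replicate 3 was the single early library in run 1, and the other two were the 2 late libraries in run 6. Leaving out females at CT14 replicate 2 gave 6 genes, and each of the other 32 libraries gave 1. Without all libraries of replicate 1 or of replicate 3, 0 genes passed 0.05 by edgeR (2256 and 1911 at an unadjusted p under 0.05). With the runs as a term, leaving out any of these 3 libraries gave 0 genes past 0.05 and 270 to 342 at an unadjusted p under 0.05 (edgeR).

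**Figure D2:**
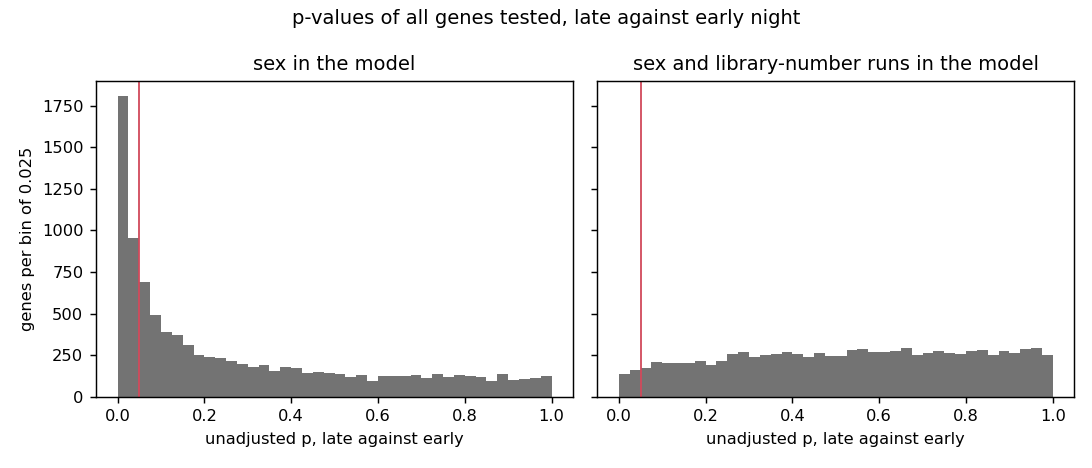
Number of genes (y axis) by unadjusted p of late against early night (x axis, bins of 0.025; vertical line at 0.05) for the 9874 genes tested, with sex in the model (left) and with sex and the runs of library numbers in the model (right). The excess of small p-values on the left (2763 genes under 0.05) is absent on the right (299 genes).

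None of the 8 core clock genes passed the adjusted threshold, and tim had the narrowest interval of them. The gene tim, whose protein partners PER and is degraded in light, averaged 542.8 ± 61.5 CPM in late heads and 550.7 ± 34.8 CPM in early heads (SD, n = 18 each), and its log2 fold change was -0.02, with a 95% interval of -0.10 to 0.06. Its means stayed between 535.5 and 558.3 CPM over the 6 times. The repressor gene per ranged from 63.2 to 126.3 CPM (median 90.5) in late heads and from 66.6 to 185.1 CPM (median 93.5) in early heads. Its log2 fold change was -0.15 ± 0.09, and -0.16 ± 0.10 with the runs in the model. Reads of per and of dyw, which overlaps it on the other strand, may be mixed, since the labels do not say whether counting used the strand. The same holds for tim, which overlaps unnamed genes, and for vri, which overlaps lncRNA:CR45730.

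Clk, the activator gene, had the lowest p of the group. Clk ranged from 35.9 to 54.5 CPM (median 44.2) in late heads and from 27.8 to 48.2 CPM (median 35.9) in early heads. Late and early libraries overlapped between 35.9 and 48.2 CPM, and the late mean was higher in 6 of 6 pairs of sex and replicate number and in 5 of 6 runs. Its log2 fold change was 0.28 ± 0.06 (95% interval 0.16 to 0.40; adjusted p = 0.111, edgeR), and 0.17 ± 0.06 with the runs in the model (unadjusted p = 0.00494, edgeR). DESeq2 called it (adjusted p = 0.0181), and CG32371 lies within its bounds on the same strand. CYC's gene, cyc, showed no such difference: it averaged 36.97 ± 4.5 CPM in late heads and 39.3 ± 4.0 CPM in early heads (SD, n = 18 each).

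Pdp1 and vri, the activator and the repressor of Clk, were spread widely between libraries. Pdp1 ranged from 446.8 to 914.6 CPM (median 650.0) in late heads and from 352.0 to 1040.5 CPM (median 525.9) in early heads. Its log2 fold change of 0.25 ± 0.11 became -0.03 ± 0.06 with the runs in the model. The gene vri averaged 252.1 ± 43.8 CPM in late heads and 240.0 ± 41.3 CPM in early heads, and cwo, a further repressor, averaged 89.6 ± 9.1 CPM in late heads and 85.6 ± 13.2 CPM in early heads (SD, n = 18 each). The photoreceptor gene cry overlaps vib on the other strand and an unnamed gene on the same strand. It ranged from 101.02 to 203.5 CPM (median 144.95) in late heads and from 122.4 to 197.8 CPM (median 172.8) in early heads. Its log2 fold change was -0.19 ± 0.07 with sex in the model and -0.03 ± 0.05 with the runs added. At an unadjusted p under 0.05, 2 of the 8 core clock genes were higher late and 1 was lower with sex alone, and with the runs 1 was higher and 0 were lower. These are 25% and 12.5% of the list, beside 13.3% and 14.7% of all genes, and with the runs 12.5% and 0%, beside 1.27% and 1.76%. A single gene is 12.5% of this list.

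**Figure D3:**
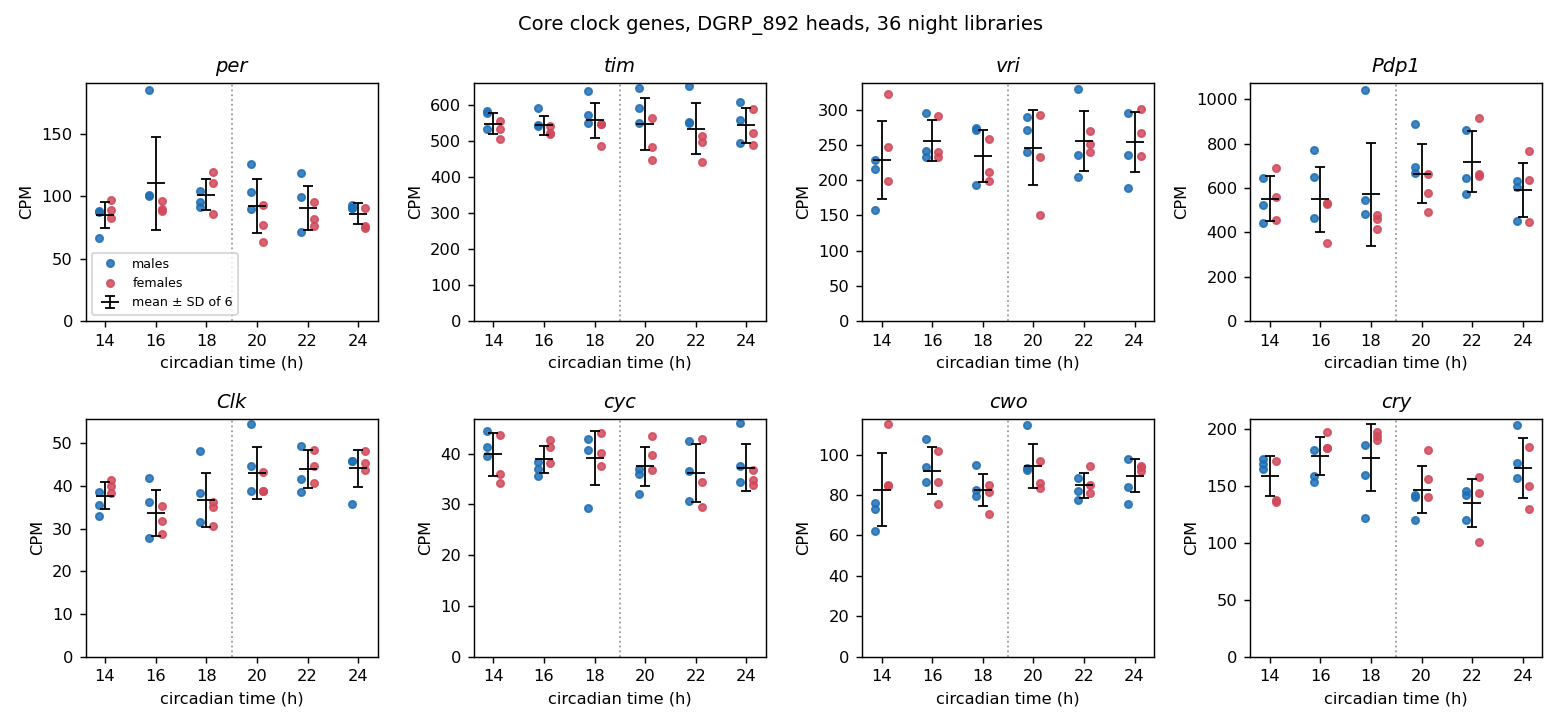
Levels of the 8 core clock genes (y axes, CPM from 0) by circadian time (x axes, h) in the 36 night libraries of DGRP_892; points are single libraries of males and females, bars the mean ± SD of 6 libraries, and the dotted line separates CT18 from CT20. Clk means lie between 43.2 and 44.2 CPM at the late times and between 33.7 and 37.8 CPM at the early times, while tim stays between 535.5 and 558.3 CPM.

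Among 21 tested genes known from earlier work as rhythmic in fly heads, 0 passed the adjusted threshold. With sex in the model 2 were higher and 6 lower late at an unadjusted p under 0.05, and with the runs 1 was higher and 4 were lower, with list medians of log2 fold change of -0.09 and 0.01 beside -0.01 and 0 over all genes. The shares were 9.52% higher and 28.6% lower with sex alone (13.3% and 14.7% of all genes), and 4.76% higher and 19% lower with the runs (1.27% and 1.76% of all genes). The 4 lower ones with the runs in the model were gol, Slob, dy and trpl. The ubiquitin ligase gene gol (goliath) ranged from 146.2 to 227.5 CPM (median 190.0) in late heads and from 155.1 to 290.9 CPM (median 219.5) in early heads. Its lowest mean was at CT24, 165.4 ± 17.01 CPM, against 237.7 ± 41.7 CPM at CT16 (SD, n = 6 each). The log2 fold change of gol was -0.22 ± 0.07 with sex alone and -0.26 ± 0.08 with the runs, and it was lower in 6 of 6 pairs and 6 of 6 runs.

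Slob encodes a protein that binds the Slowpoke potassium channel. It averaged 519.4 ± 76.5 CPM in late heads and 532.3 ± 88.2 CPM in early heads (SD, n = 18 each), and its log2 fold change was -0.035 ± 0.066. Within the runs the difference was between -0.29 and -0.07 in each of the 6, and with the runs in the model Slob stood at -0.15 ± 0.045 (unadjusted p = 0.00207, edgeR). Slob overlaps Myo28B1 on the other strand, and Myo28B1 was lower in 6 of 6 runs as well, at -0.135 ± 0.035 in that fit. The photoreceptor channel gene trpl averaged 2928 ± 280 CPM in late heads and 3162 ± 327 CPM in early heads (SD, n = 18 each), lower in 6 of 6 pairs with a log2 fold change of -0.11 ± 0.05. The membrane protein gene dy (dusky) was low and scattered, from 0.070 to 8.70 CPM in late heads and from 0.513 to 12.2 CPM in early heads.

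Achl (Achilles) was the 1 output gene higher late at an unadjusted p under 0.05 in both fits. Achl ranged from 191.0 to 330.5 CPM (median 249.6) in late heads and from 124.3 to 280.4 CPM (median 201.8) in early heads. It peaked at CT20 with 269.6 ± 44.9 CPM (SD, n = 6). Its log2 fold change was 0.30 ± 0.07 with sex alone (adjusted p = 0.111, edgeR) and 0.23 ± 0.07 with the runs, and it was higher late in 6 of 6 pairs and 5 of 6 runs. The retinal pigment cell enzyme gene Pdh, at -0.23 ± 0.08 with sex alone and -0.09 ± 0.07 with the runs, and the potassium channel gene slo, at 0.18 ± 0.07 and 0.01 ± 0.05 in the same order of fits, lost most of their difference when the runs entered. The takeout gene, to, averaged 90.7 ± 26.4 CPM in late heads and 99.2 ± 42.02 CPM in early heads (SD, n = 18 each).

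The enzymes that modify clock proteins gave the list that holds Usp8. Of 17 tested kinases, phosphatases, ligases and related factors, 9 were higher late (52.9%) and 3 lower (17.6%) at an unadjusted p under 0.05 with sex in the model, beside 13.3% and 14.7% of all genes. With the runs in the model 0 were higher and 1 was lower (5.88%), Usp8 itself, beside 1.27% and 1.76% of all genes. The largest positive value belonged to sgg, the fly GSK3 kinase that acts on TIM, with a log2 fold change of 0.31 ± 0.10 with sex alone and 0.03 with the runs. Bdbt, which binds the kinase DBT, stood at -0.21 ± 0.06 with sex alone and -0.09 with the runs. The 20 clock neuropeptide and receptor genes had 6 higher and 6 lower late with sex alone (30% each, beside 13.3% and 14.7% of all genes). With the runs 0 were higher, and 1 gene, which is 5% of this list, was lower, beside 1.27% and 1.76% of all genes. That gene, SIFa, which encodes the neuropeptide SIFamide, ranged from 5.02 to 10.9 CPM (median 6.58) in late heads and from 6.75 to 9.87 CPM (median 7.71) in early heads, and was lower in 6 of 6 runs. Pdf, the transmitter of the ventral clock neurons, ranged from 31.96 to 77.2 CPM (median 49.7) in late heads and from 37.3 to 100.04 CPM (median 63.03) in early heads. Its log2 fold change of -0.29 ± 0.09 became -0.04 with the runs in the model. These examples were chosen after their values were seen.

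In the fit with sex alone 5 lists, picked after their values were seen, had genes with an unadjusted p under 0.05 almost wholly in 1 direction, and their medians lay near 0 when the runs were added. Cytosolic ribosomal protein genes had 0 higher and 33 lower late of 79 tested (41.8%, against 14.7% of all genes), with a median log2 fold change of -0.20. Nuclear genes of the respiratory chain had 0 higher and 31 lower of 64 (48.4%), with a median of -0.17, and mitochondrial ribosomal protein genes 0 higher and 25 lower of 71 (35.2%), with a median of -0.115. In the other direction, 6 of 14 neuronal genes were higher late (42.9%, against 13.3% of all genes) and 0 were lower, with a median of 0.18. Of 24 genes for ion channels and sleep 9 were higher (37.5%) and 1 was lower, with a median of 0.15. With the runs in the model the same lists had medians of 0.02, -0.02, -0.01, -0.03 and -0.01. In that fit, 0 cytosolic ribosomal protein, respiratory chain, neuronal or ion channel and sleep genes had an unadjusted p under 0.05, and of the mitochondrial ribosomal protein genes 1 was higher and 2 were lower. The 5 lists were not the only one-sided ones. With sex alone, activity-induced transcription factors had 5 higher and 0 lower of 8 (62.5%). Clock translation and splicing factors had 4 higher and 0 lower of 7 (57.1%), and with the runs both lists had 0 of either. Of 75 cytochrome P450 genes 5 were higher (6.67%) and 10 lower (13.3%) with sex alone, and 20 had a positive log2 fold change. Of 48 odorant and gustatory receptor genes 1 was higher (2.08%) and 3 were lower (6.25%) with sex alone, and 14 had a positive log2 fold change. Both lists thus leaned lower late with few calls, and their medians of -0.055 and -0.09 became 0.04 and 0.11 with the runs. On the ERCC scale the medians of cytosolic ribosomal protein and respiratory chain genes were 0.19 and 0.20, positive but under the 0.32 of all genes, and that of neuronal genes was 0.47.

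Levels by run of library numbers are given for 3 members of these lists. UQCR-11, a subunit of respiratory complex III, averaged 22.1, 21.98, 19.3, 44.3, 23.8 and 85.2 CPM in runs 1 to 6. Every one of the 8 libraries of run 6 lay between 77.95 and 93.35 CPM, the 2 late ones included, and no other library passed 48.9 CPM. UQCR-11 averaged 30.4 ± 21.9 CPM in late heads and 46.4 ± 29.2 CPM in early heads (SD, n = 18 each), and its log2 fold change of -0.62 became 0.02 with the runs. Syx1A, the syntaxin of synaptic vesicle fusion, averaged 28.2, 14.3, 21.6, 16.4, 21.9 and 13.75 CPM in runs 1 to 6. It averaged 21.4 ± 4.9 CPM in late heads and 16.2 ± 4.8 CPM in early heads (SD, n = 18 each), and its log2 fold change of 0.41 ± 0.12 became 0.07 with the runs. For RpLP2, an acidic protein of the ribosomal stalk, the log2 fold change was -0.565 with sex alone and -0.04 with the runs, and the difference within runs lay between -0.72 and 0.45. These 3 genes were also chosen after their values were seen.

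**Figure D4:**
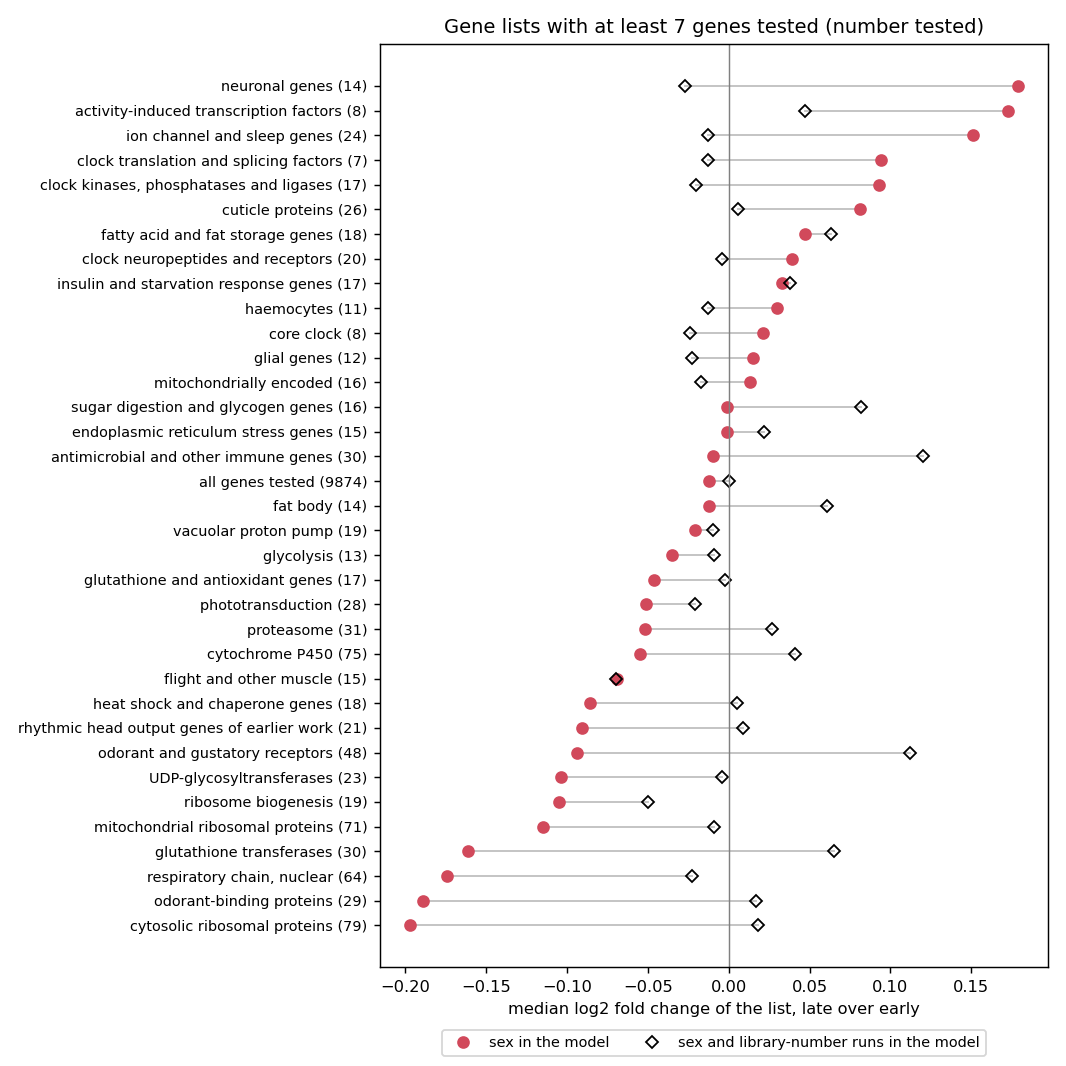
Median log2 fold change, late over early (x axis), of each gene list with at least 7 genes tested (y axis, number tested in brackets); filled circles are from the fit with sex in the model and open diamonds from the fit with sex and the runs of library numbers. Cytosolic ribosomal protein genes lie at -0.20 and 0.02, and neuronal genes at 0.18 and -0.03.

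**Figure D5:**
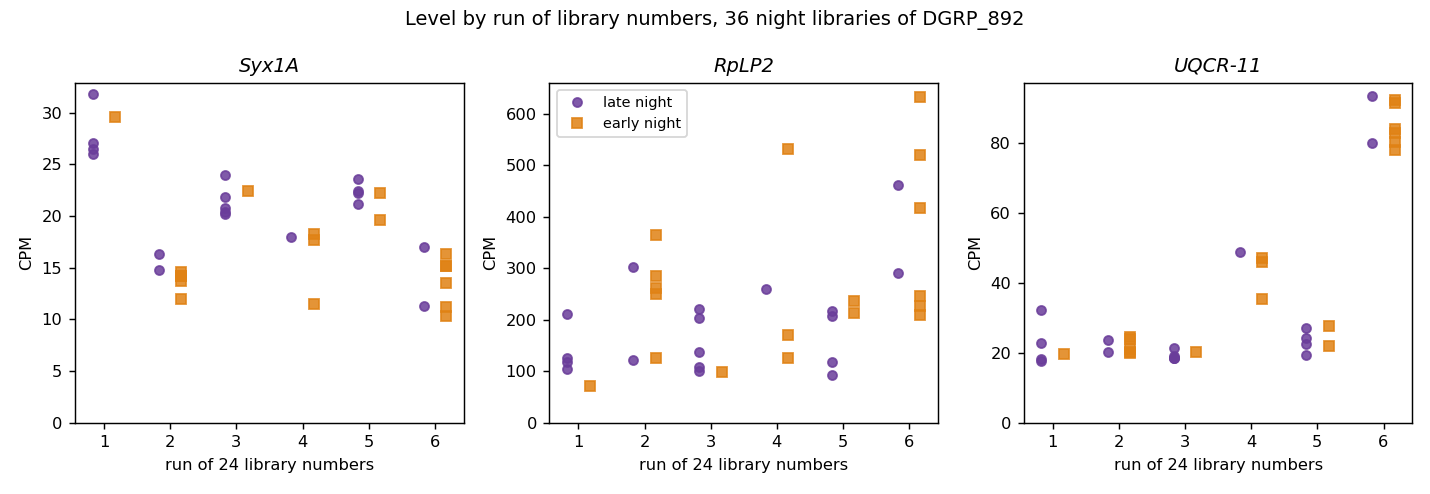
Levels of Syx1A, RpLP2 and UQCR-11 (y axes, CPM from 0) by run of 24 library numbers (x axes) in the 36 night libraries of DGRP_892; circles are late libraries and squares early ones. Within a run the late and early points of UQCR-11 lie close together, while run 6 lies between 77.95 and 93.35 CPM.

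Counts for lists of other tissues and stress genes stand beside 13.3% of all genes higher and 14.7% lower with sex alone, and 1.27% and 1.76% with the runs. The phototransduction genes had 1 higher and 7 lower of 28 with sex alone, and 0 higher and 2 lower with the runs, trp and trpl. Of 12 glial genes 2 were higher and 2 lower with sex alone, and 0 of either with the runs. The 29 tested odorant-binding protein genes had 0 higher and 7 lower with sex alone, and 0 of either with the runs. Of 30 immune genes 4 were higher and 1 lower with sex alone, and 2 higher and 0 lower with the runs. For 18 heat shock and chaperone genes 1 was higher and 1 lower, and 0 of either with the runs. Fat body genes had 0 of 14 in either direction in both fits.

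The yolk protein genes Yp1, Yp2 and Yp3, made in females by fat body and ovary, were widely spread between libraries. Fitted log2 fold changes were -1.05 ± 0.56, -1.16 ± 0.62 and -0.83 ± 0.40 for Yp1, Yp2 and Yp3 with sex alone, and -1.26 ± 0.68, -1.43 ± 0.76 and -0.98 ± 0.46 with the runs. In each fit 1 of the 3 was lower late at an unadjusted p under 0.05. A single gene is 33.3% of this list, beside 14.7% of all genes lower with sex alone and 1.76% with the runs. Female levels of Yp1 averaged 46084 ± 9522 CPM in late heads and 44317 ± 9708 CPM in early heads (SD, n = 9 each). In males Yp1 ranged from 18.99 to 703.6 CPM (median 40.8) in late heads and from 26.9 to 1766 CPM (median 71.1) in early heads, so the early night held the highest male levels.

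Several genes next in order after Usp8, each with an adjusted p of 0.111 (edgeR), were named after their values were seen. Nedd8, a ubiquitin-like protein gene, averaged 24.2 ± 2.4 CPM in late heads and 27.9 ± 2.5 CPM in early heads (SD, n = 18 each), with log2 fold changes of -0.21 with sex alone and -0.13 with the runs. Also lower late, by log2 fold change with sex alone and then with the runs, were mRpS35 of the mitochondrial ribosome (-0.32 and -0.15), Coq9 of ubiquinone synthesis (-0.24 and -0.16), PIG-S of the GPI transamidase (-0.20 and -0.09), CG2680 (-0.44 and -0.21) and aln (-0.31 and -0.13). Higher late were lncRNA:CR45517, at 18.3 ± 6.5 CPM in late heads and 12.3 ± 4.5 CPM in early heads (SD, n = 18 each), and CG7083, each higher in 6 of 6 runs. Their log2 fold changes were 0.54 and 0.13 with sex alone, and 0.26 and 0.09 with the runs. Over all genes, 160 (1.62%) were lower and 1.38% were higher in all 6 runs.

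No gene passed an adjusted p of 0.05 in males or in females (edgeR), with 1523 genes (15.7%) of 9673 tested in males and 1543 (16.1%) of 9577 tested in females at an unadjusted p under 0.05. Without the 2 libraries with gut or testis genes, 959 genes in males and 1321 in females had an unadjusted p under 0.05. DESeq2 called 2 genes in males and 5 in females. The log2 fold change of Usp8 was -0.36 in males (adjusted p = 0.289) and -0.31 in females (adjusted p = 0.225, both edgeR). In males it averaged 90.5 ± 9.0 CPM late and 116.35 ± 11.5 CPM early, and in females 90.2 ± 9.0 CPM late and 112.7 ± 13.5 CPM early (SD, n = 9 each). Clk averaged 43.9 ± 5.9 CPM late and 36.8 ± 6.0 CPM early in males, and 43.6 ± 3.6 CPM late and 35.3 ± 4.3 CPM early in females (SD, n = 9 each). The difference between the sexes in the late over early change was past the threshold for 0 genes by edgeR and by DESeq2, with 488 genes (4.94%) at an unadjusted p under 0.05 (edgeR). That share is about what a threshold of 0.05 gives with no difference in any gene. For Usp8 the difference in the late over early change, males minus females, was -0.04.

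A test for any difference among the 6 times, with sex in the model, called 6 genes (0.0608%; edgeR): Usp8 (adjusted p = 0.0259), CG7214 and CG34220 (0.0296 each), CAH7 (0.0375), salto and lncRNA:CR45180 (0.0482 each). For 3 of them 1 library carried the call. CG7214 had 170.5 CPM in females at CT22 replicate 2 and at most 1.91 CPM in any other library. CG34220 had 306.4 CPM in males at CT22 replicate 2, against a median of 1.61 CPM in early libraries, and salto had 42.2 CPM there against 0.523 CPM. Without the 2 libraries with gut or testis genes 4 genes were called (785 at an unadjusted p under 0.05), among them CG7214 (adjusted p = 0.00147), CAH7 (0.0217) and Usp8 (0.0235, all edgeR). Without replicate 2 of CT22 in both sexes, a choice made after seeing the data, 2 genes were called, Usp8 and CAH7 (adjusted p = 0.0171 each, edgeR). With the runs in the model 1 gene was called, inaF-B (adjusted p = 0.0172), which was not among the 6. With the replicate number as a block 0 genes were called by edgeR (1124 had an unadjusted p under 0.05), with Usp8 at an adjusted p of 0.0564, and DESeq2 without the block called 27.

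CAH7, a carbonic anhydrase gene, averaged 127.1 ± 17.4, 126.95 ± 16.7, 138.2 ± 9.1, 118.1 ± 13.5, 135.6 ± 15.1 and 112.4 ± 14.5 CPM from CT14 to CT24 (SD, n = 6 each), highest at CT18 and CT22. Its late over early log2 fold change was -0.10 ± 0.04, lower in 6 of 6 runs. The gene lncRNA:CR45180 was likewise highest at CT18 and CT22, with 12.4 ± 1.5 CPM at CT18, 12.7 ± 1.5 at CT22 and 9.3 ± 1.3 at CT16 (SD, n = 6 each). With the runs in the model both genes had an adjusted p of 0.121 in the 6-time test (edgeR). Without the 2 libraries with gut or testis genes, lncRNA:CR45180 was not called in it (adjusted p = 0.0962, edgeR). Without replicate 2 of CT22 in both sexes, its adjusted p was 0.523 (edgeR).

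Canton-S B, in the same hours, also had little that passed the threshold. In a fit of the 72 night libraries of both lines (10175 genes tested), DGRP_892 had 2 genes past 0.05 (0.0197%), Jon99Ciii and lncRNA:CR45517, and Canton-S B had 6 (0.0590%; both edgeR), namely Myo28B1, Sgp, CG16904, Acp36DE, CG17560 and Usp8. Jon99Ciii, a gut protease gene, had its 2 highest levels among the night libraries of DGRP_892 in males at CT22 replicate 2 (7.84 CPM) and females at CT22 replicate 1 (4.64 CPM). In Canton-S B, 4 of the 6 calls rested on 1 library, males at CT22 replicate 1. Acp36DE had 47.7 CPM there and at most 0.202 CPM in the other Canton-S B night libraries, Sgp had 33.7 CPM and at most 0.235, CG16904 27.3 CPM and at most 0.205, and CG17560 10.7 CPM and at most 0.337. Without that library Canton-S B had 1 gene past 0.05, and Usp8 there had a log2 fold change of -0.33 and an adjusted p of 0.163 (edgeR). The log2 fold change of Usp8 in this fit was -0.34 in DGRP_892, where its adjusted p of 0.0578 missed the threshold, and -0.34 in Canton-S B (adjusted p = 0.0339, edgeR), and with all libraries the difference, DGRP_892 minus Canton-S B, was -0.004 with a 95% interval of -0.21 to 0.21.

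No gene differed between the lines in its late over early change at an adjusted p of 0.05 by edgeR or DESeq2, although 1805 (17.7%) had an unadjusted p under 0.05 (edgeR). With the runs as a term that number was 209. Without the 2 libraries with gut or testis genes, 4 genes passed, all with lower values in DGRP_892 than in Canton-S B: Acp36DE, Sgp, CG16904 and CG17560, the genes high in that 1 library of Canton-S B. That library was kept in this fit. Of the 2 left out, DGRP_892 males at CT22 replicate 2 had 48.8 CPM of Acp36DE. Of the clock genes, in the fit without the runs, the interval of the difference lay above 0 for Pdp1 (0.37, 95% interval 0.07 to 0.67), Clk (0.21, 0.01 to 0.40) and cwo (0.27, 0.11 to 0.44), each with an adjusted p of 0.258 or 0.267 (edgeR). Within DGRP_892 alone, the late over early values with sex in the model were 0.25 for Pdp1, 0.28 for Clk and 0.065 for cwo. With the runs they were -0.03, 0.17 and -0.02. In Canton-S B the log2 fold changes of these 3 genes were -0.125 for Pdp1, 0.07 for Clk and -0.21 for cwo. For tim the difference was -0.04 with an interval of -0.17 to 0.10, and for per 0.11 with an interval of -0.18 to 0.41.

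Set against the rest of the day in DGRP_892, the early night values of Usp8 were the high ones. Scaled with all 72 libraries of the line, Usp8 averaged 80.1 to 96.8 CPM at the 6 times from CT2 to CT12, 105.7 to 119.03 CPM at the 3 early night times and 86.7 to 92.7 CPM at the 3 late night times. Clk averaged 42.7 to 50.9 CPM from CT2 to CT12, 33.7 to 37.7 CPM in the early night and 43.4 to 44.1 CPM in the late night. For tim the 12 means lay between 479.2 and 557.6 CPM. These levels are a description, with no test.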

How the data were processed

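Poly(A) RNA of fly heads was sequenced as stranded libraries, per the labels' protocols, and reads were mapped to FlyBase release 6 and the ERCC transcripts, then summed by gene. FastQC 0.11.5, STAR 2.5.3a and featureCounts 1.5.2 are named in the submitters' processing notes. The raw counts deposited by the authors were used: 17381 genes, of which 17239 matched a symbol, and 92 ERCC transcripts, which entered neither library sizes nor tests. The deposited batch-corrected, TMM-normalized table, treated as a score because values can be below 0, served as an alternative (limma 3.58.1 on log2(value + 20), negative values set to 0). How its batches were defined is not stated in the labels. There was 1 column of no mapped sample, which was not used.

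filterByExpr on sex and time of night (at least 10 counts per library, 15 in total) kept 9874 genes, holding 99.92% of gene counts. Counts were scaled by TMM and tested with edgeR 4.0.16 (robust glmQLFit, glmQLFTest, R 4.3.3), late over early with sex as covariate, and adjusted by Benjamini-Hochberg over all genes tested. CPM are TMM-scaled. Intervals are 95% intervals from the fit. A principal component analysis used log2 CPM with a prior count of 2. Alternatives were DESeq2 1.42.0, other scalings and filters, a replicate block, runs of 24 library numbers, and libraries, times or replicates left out. The fits were tested on simulated counts of independent libraries, with no differences between runs or replicate numbers. That test could not show how the fits behave with such differences. Figures were drawn with matplotlib 3.10.9. Overlaps of genes come from Ensembl release 115. Other named genes overlap a gene on the other strand: trpl (CG1690), Pdh (Tcs3 and asRNA:CR45894) and CG2680 (eIF2Bbeta). On the same strand, CG7083 overlaps Prim1, Coq9 overlaps CG30496, PIG-S overlaps sud1 and CG34220 overlaps oys. Reads of these genes may be mixed as well.

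Replicate numbers mark the 3 repeats of the collection, per the labels' protocols. For replicates 1 to 3, deviations of same-numbered libraries from their group means correlated at 0.470, 0.351 and 0.298 over both sexes. Within males they correlated at 0.605, 0.370 and 0.242, and within females at 0.067, 0.136 and 0.169. The numbers thus pair the libraries more in males than in females, and the main fit had no replicate block. Named genes were those past the adjusted threshold whose higher group averaged 5 CPM or more and that went in 1 direction in 6 of 6 pairs of sex and replicate number, plus the core clock list. Others are named as chosen after their values were seen, and the output genes, neuropeptides and list examples likewise. The 36 libraries, the comparison and the 39 lists were chosen with earlier results of these data known.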

Additional observations from a re-analysis of the deposited data

Results flagged for a closer look

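In 12 of 120 groups of 9 libraries (30 genes, with sexes and late and early night apart), 1 library lay farther from its neighbour than Dixon's 95% limit of 0.493 of the range allows, where chance gives about 1 in 20 groups. CG34220, salto and CG7214 were among the 30 genes because the 6-time test called them, and the same libraries carried those calls. In late heads, males at CT22 replicate 2 had 306.4 CPM of CG34220 (next 3.51) and 42.2 CPM of salto (next 1.4), and females at CT22 replicate 2 had 170.5 CPM of CG7214 (next 1.68) and 142.4 CPM of CAH7 (next 120). Females at CT20 replicate 2 had 150.5 CPM of vri (next 233.1), females at CT20 replicate 3 had 3462 CPM of trpl (next 3089), and females at CT24 replicate 1 had 0 CPM of salto (next 0.371). In early heads, males at CT16 replicate 3 had 185.1 CPM of per (a gap of 0.684 of the range) and 3824 CPM of trpl (next 3207). Males at CT18 replicate 3 had 122.4 CPM of cry (next 153.8), 17.6 CPM of aln (next 25.8) and 3.55 CPM of CG34220 (next 1.61).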

How the results depend on the processing

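The log2 fold change of Usp8 was below 0 in each of 66 alternatives, from -0.497 to -0.012. It was past an adjusted p of 0.05 in each of the 36 that left out 1 library and in 18 of the 30 others. The late over early comparison called 27 genes by DESeq2, 76 with no filter (4272 at an unadjusted p under 0.05), 2 without CT22 (1230 unadjusted) and 2 with all 144 libraries. It called 0 on the ERCC scale (1459, of which 1454 higher), with the runs (299), with replicate block and runs (315), in the deeper libraries (848), without CT18 and CT20 (2934), and as a slope (2164). With the runs it also called 0 without females at CT20 replicate 2 (342), males at CT18 replicate 3 (299), males at CT24 replicate 2 (270) or the 2 libraries with gut or testis genes (292). Unadjusted counts were 1664 in the shallower libraries, 1556 without CT16, 676 in the batch-corrected values and 1097 without the 6th run. Leaving out single libraries gave 1 to 1785 calls (2200 to 3691 unadjusted), and leaving out a replicate number 0 to 1 calls (988 to 2256 unadjusted). DESeq2 called 5 genes in females and 2 in males. The 6-time test called 3 genes with the CPM filter, 27 by DESeq2, 0 with the replicate block, 1 with the runs, 2 without both replicates 2 of CT22, and 0 to 1 without a replicate number. The replicate block left the late over early comparison at 1 call, Usp8 (adjusted p = 0.0012, edgeR). The line difference had 209 unadjusted genes with the runs, 4 calls without the 2 libraries, and 729 to 1247 unadjusted without a replicate number. Canton-S B had 17 calls without the 2 libraries, 1 without its library of males at CT22 replicate 1, and 0 to 35 without a replicate number.

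The log2 fold changes named next had the other sign than with sex alone, and the cause was not tested. With the runs they were vri -0.064, Pdp1 -0.03, cyc 0.014, cwo -0.023 and to 0.136, and with the block added vri -0.046, Pdp1 -0.029, cyc 0.009, cwo -0.019 and to 0.176. With the runs and 1 library left out they were tim 0.007, vri -0.016, Pdp1 -0.053, cyc 0.014, cwo -0.048, to 0.163 and slo -0.011 (females CT20), vri -0.067, Pdp1 -0.002, cyc 0, cwo -0.022 and to 0.124 (males CT18), and vri -0.059, Pdp1 -0.021, cyc 0.001, cwo -0.027 and to 0.119 (males CT24). With the runs and without the 2 libraries they were vri -0.079, Pdp1 -0.027, cyc 0.009, cwo -0.017 and to 0.141. On the ERCC scale they were per 0.185, tim 0.308, cyc 0.242, cry 0.126, gol 0.093, Slob 0.268, Pdh 0.104, trpl 0.228, to 0.308, Nedd8 0.135, mRpS35 0.052, aln 0.045, Coq9 0.106 and PIG-S 0.139. Slob was 0.066 in the deeper libraries, 0.008 without CT18, 0.009 without CT18 and CT20, and 0.04 and 0.007 without replicates 1 and 3. Over the replicate numbers left out, tim ran from -0.091 to 0.039, Slob from -0.133 to 0.04 and to from -0.276 to 0.04, and Usp8 ran from -0.112 to 0.015 for males minus females and from -0.080 to 0.127 for DGRP_892 minus Canton-S B, where tim ran from -0.085 to 0.025. The others were tim 0.039 without replicate 2 and 0.003 in the shallower libraries, to 0.04 without replicate 3 and 0.005 batch-corrected, cwo -0.002 without CT18 and CT20 and -0.007 without the 6th run, and vri -0.004 batch-corrected. For males minus females, Usp8 was 0.042 with the runs and 0.015 without replicate 2. For DGRP_892 minus Canton-S B, Usp8 was 0.001 with RLE, the CPM filter and DESeq2, 0.069 with the runs, 0 without the 2 libraries and 0.127 without replicate 2, tim was 0.019 with the runs and 0.025 without replicate 2, cyc and cry were 0.03 with the runs, and per was -0.026 without replicate 1.

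The settings with single libraries left out beside the runs, the 6th run left out, both replicates 2 of CT22 left out and the Canton-S B library left out were chosen after seeing the data. Every library had at least 13.04 M gene counts.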

Other observations

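Other gene groups gave values that the comparison above did not use. Of 16 mitochondrially encoded genes 2 were higher and 5 lower late at an unadjusted p under 0.05, and with the runs in the model 0 were higher and 1 was lower. Over all genes the shares were 13.3% higher and 14.7% lower with sex alone, and 1.27% and 1.76% with the runs. The complex I gene mt:ND4L ranged from 2.17 to 166.7 CPM (median 9.48) in late heads and from 4.22 to 249.7 CPM (median 126.5) in early heads. Its median per run was 2.76, 93.7, 8.15, 99.6, 12.97 and 171.3 CPM in runs 1 to 6. The complex III gene mt:Cyt-b averaged 4153 ± 1957 CPM in late heads and 2716 ± 1975 CPM in early heads (SD, n = 18 each), with run medians between 1281 CPM (run 2) and 6618 CPM (run 1). Of 19 ribosome biogenesis genes 1 was higher and 8 lower with sex in the model, and 0 higher and 1 lower with the runs. Of 18 fatty acid and fat storage genes 5 were higher and 0 lower, and 1 higher and 0 lower with the runs.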
